A study of Mus musculus with 21 samples.

Results

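The comparison set mature miRNAs in whole mouse kidney 28 days after folic acid against those at 7 days, in the 3 libraries of each day. These 6 libraries were taken from a course of 21, and the members were all miRNAs past a filter on low counts, 431 of the 1125 in the table. The question was how far each miRNA had come back from its day 7 level by day 28, and which had not. Male BALB/c mice received folic acid at 250 mg/kg, dissolved in 0.3 M sodium bicarbonate, and kidneys were collected at day 0, on each of the first 3 days and on days 7, 14 and 28. At this dose folic acid injures the tubules, and the kidney then goes through repair and partial fibrosis. All groups carry the same age label of 12 weeks, and none of the later days has mice given bicarbonate alone. Whether mice of day 0 had an injection is not stated in the labels, nor do they name the animal behind each library. The p-values therefore rest on library-to-library spread, which may be technical. Day 28 cannot be told apart from age or day of collection.

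A miRNA is cut from a hairpin precursor, and one strand, or arm, is loaded into an Argonaute protein. The loaded strand pairs with messenger RNAs mainly through its seed, bases 2 to 8 counted from its 5′ end, and lowers their stability or translation. miRNAs with the same seed can therefore share targets even when they come from different chromosomes, while miRNAs cut from one transcript can have unrelated seeds. In the kidney, miR-192, miR-194, miR-204 and the miR-30 family mark tubular epithelium, miR-142 and miR-223 blood-derived cells, and miR-199a and miR-214 fibroblast-like cells. miR-21 is known for its increase in injured and fibrotic kidney.

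The sequences below belong to the miRNAs that the results turn on. They are mature sequences from RefSeq (mouse build GRCm38.p6), 5′ to 3′, with the seed in capitals. RefSeq held a sequence for 335 of the 431 miRNAs, 318 of them found by name and 17 by an older gene symbol. The first set holds miRNAs that fell from day 7 to day 28, among them both arms of miR-21 and 2 pairs that share a seed.
miR-21-5p: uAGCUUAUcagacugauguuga
miR-21-3p: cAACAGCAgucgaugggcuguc
miR-132-3p: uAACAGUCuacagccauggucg
miR-212-3p: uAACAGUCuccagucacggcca
miR-19a-3p: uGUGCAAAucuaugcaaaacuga
miR-19b-3p: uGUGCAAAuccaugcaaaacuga
miR-18a-5p: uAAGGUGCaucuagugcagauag
miR-298-5p: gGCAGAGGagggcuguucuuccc
miR-223-3p: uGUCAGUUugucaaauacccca
miR-214-3p: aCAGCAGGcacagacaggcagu

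The next set shows miRNAs of the AAAGUGC seed and of the AUUGCAC seed. They are shown because their members moved in opposite directions. miR-17-5p and miR-20a-5p come from the miR-17 to miR-92 transcript Mir17hg on chromosome 14, where miR-17-5p lies at chr14:115043684-115043706 on the plus strand. miR-92a-3p is encoded in Mir17hg and also has a copy in the X chromosome cluster named below. Its reads therefore cannot be assigned to either locus alone. miR-106b-5p, miR-93-5p and miR-25-3p lie in an intron of Mcm7 on chromosome 5 (miR-106b-5p at chr5:138165787-138165807, minus strand). miR-106a-5p, miR-20b-5p and miR-363-3p lie in a cluster on the X chromosome, at chrX:52742541-52742563, chrX:52742159-52742181 and chrX:52741697-52741718, all on the minus strand.
miR-17-5p: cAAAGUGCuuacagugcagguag
miR-20a-5p: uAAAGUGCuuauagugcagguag
miR-106b-5p: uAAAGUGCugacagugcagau
miR-93-5p: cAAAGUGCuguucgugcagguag
miR-106a-5p: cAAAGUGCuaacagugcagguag
miR-20b-5p: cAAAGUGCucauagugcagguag
miR-92a-3p: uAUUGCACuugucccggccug
miR-25-3p: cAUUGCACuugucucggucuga
miR-363-3p: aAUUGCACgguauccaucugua

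The third set holds miRNAs that rose, miRNAs that stayed away from day 0 and miR-15b-5p, a fall shown for its seed. miR-30a and miR-30e differ by 1 base, and miR-195-5p, miR-497-5p and miR-15b-5p share the seed AGCAGCA.
miR-30a-5p: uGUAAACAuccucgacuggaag
miR-30e-5p: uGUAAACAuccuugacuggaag
miR-30e-3p: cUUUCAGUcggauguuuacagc
miR-3073b-3p: cUGGCGCCaacugugaccacug
miR-203-3p: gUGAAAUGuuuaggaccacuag
miR-195-5p: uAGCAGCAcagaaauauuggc
miR-497-5p: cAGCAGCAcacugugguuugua
miR-15b-5p: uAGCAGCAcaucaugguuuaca
miR-146b-5p: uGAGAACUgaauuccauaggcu
miR-199a-3p: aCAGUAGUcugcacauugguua
miR-181c-5p: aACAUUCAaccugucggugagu
miR-181c-3p: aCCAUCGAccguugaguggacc
miR-33-5p: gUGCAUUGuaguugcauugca
miR-676-3p: cCGUCCUGagguuguugagcu

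The day 7 libraries held 3752833 to 6415634 miRNA reads and the day 28 libraries 4494595 to 5719649, within the range of all 21 libraries (2875675 to 7110546). Where no read was found, up to 3 could have been missed, or 0.468 to 0.799 CPM at day 7 and 0.525 to 0.667 CPM at day 28. This limit covers counting error only. Levels are given as CPM, the count of a miRNA per fixed total of miRNA reads, scaled between libraries by TMM factors. Per-library values follow the replicate numbers 1, 2 and 3. Day 7 was the day furthest from day 0 for 142 of the 431 miRNAs (32.9%), against 76 for day 3, 72 for day 14, 68 for day 2, 43 for day 1 and 30 for day 28. It was thus the most frequent extreme but not the extreme of most miRNAs. On the first principal component, which held 41.1% of the variance, the day 7 libraries had a mean score of 6.77 ± 1.59 (SD, n = 3). Those of day 28 had -3.92 ± 1.38 and those of day 0 had -10.5 ± 0.228. On this axis, fitted to all 21 libraries, the day 28 libraries lay between day 7 and day 0 without reaching day 0. On the second component (20.8%) day 28 lay at -4.34 ± 1.10, further from day 0 (-0.996 ± 1.29) than day 7 did (-2.02 ± 0.472).

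Between day 7 and day 28, 89 of the 431 miRNAs fell and 71 rose, and the other 271 did not pass the test. The falls were led by both arms of miR-21, the pair miR-132 and miR-212, and miR-18a-5p and miR-19a-3p of the miR-17 to miR-92 cluster. The rises were led by both arms of miR-3073b, miR-20b-5p and miR-874-3p, and included all 7 tested members of the miR-30 list. A call is an adjusted p under 0.05 from limma, with Benjamini-Hochberg adjustment over all 431, on log2(CPM + 1). On this scale the change of scarce miRNAs is understated. Called miRNAs made up 37.1% of those tested, with 16.5% higher and 20.6% lower. The libraries of the 2 days did not overlap for 223 miRNAs (51.7% of those tested), day 28 being above for 105 (24.4%) and below for 118 (27.4%). The median difference over all 431 was -0.04. How the libraries were scaled changed the split. With library totals in place of TMM factors, 30 rose and 120 fell, so that 20% of calls were rises in place of 44.4%. The median over the 431 shifted by -0.17 under that scaling. Without day 28 replicate 2, 44 rose, and without day 7 replicate 2, 46 rose.

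**Figure D1:**
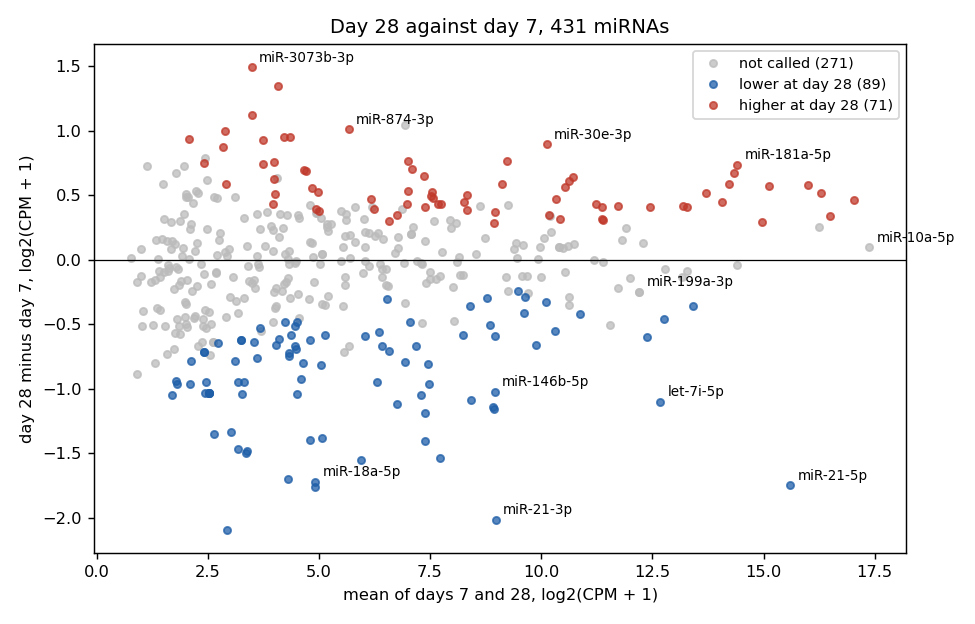
Each of 431 miRNAs by the log2 of its mean CPM over the 6 libraries of days 7 and 28, plus 1 (horizontal axis), and its difference, day 28 minus day 7 (log2, vertical axis). The 71 called higher at day 28 are red, the 89 called lower blue and the 271 not called grey. miR-21-5p is far to the right of the other large falls, near 15.6 on the horizontal axis. The lowest point, at -2.09, is miR-301b-3p, a scarce miRNA named here after its value was seen.

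A set of injury-responsive miRNAs was also chosen from day 3 against day 0, so that the means of days 7 and 28 did not enter the choice. The filter, the scaling and the shared spread still came from all 21 libraries. A miRNA of little spread is thus more easily called in both comparisons, and the shares below are a description. Day 3 differed from day 0 for 213 of 431 (49.4%), 131 higher (30.4%) and 82 lower (19%). Of the 131 higher at day 3, 80 (61.1%) fell from day 7 to day 28 and 0 rose, with a median difference of -0.60. Of the 82 lower at day 3, 54 (65.9%) rose and 0 fell, with a median of 0.43. Among the 218 that day 3 did not call, 9 fell and 17 rose, with a median of 0.03. These shares stand against 20.6% fallen and 16.5% risen over all miRNAs tested. With library totals, 98 of 145 (67.6%) fell and 21 of 50 (42%) rose. Without day 28 replicate 2, 36 of the 82 rose, and 61 of the 131 fell.

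The share returned is the distance from day 7 back to day 28, as a percent of the distance from day 0 to day 7 on the log2 scale. It is a description with no test, since the day 7 libraries enter both distances. A value of 100% is the day 0 level, a value above 100% lies past it, and a negative value lies further from day 0 than day 7 did. Day 7 against day 0 called 226 of 431 miRNAs (52.4%), 128 higher (29.7%) and 98 lower (22.7%). The median share returned was 60.1% for the 128 higher at day 7, with quartiles of 42.0% and 84.1%. It was 68.4% for the 98 lower, with quartiles of 52.3% and 85.4%. With library totals these medians were 70.53% and 46.79%. Of the 128 higher at day 7, 85 fell by day 28, 1 rose and 42 were not called. Of the 98 lower, 58 rose, 0 fell and 40 were not called. Of the 205 not called at day 7, 12 rose and 4 fell. Over all miRNAs 20.6% fell and 16.5% rose. The day 7 libraries enter both the choice and the call, which favours these directions, so the counts are a description only.

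Markers of cell types moved with the days in these whole-kidney libraries. In bulk tissue, fewer cells of a type and less of a miRNA per cell cannot be told apart. The summed level of 4 tubule miRNAs (miR-192-5p, miR-215-5p, miR-204-5p and miR-30a-5p) was 188570 to 218710 CPM at day 0, 113900 to 124530 at day 7 and 164130 to 189240 at day 28. Nearly all of this sum was miR-192-5p and miR-30a-5p. miR-204-5p went the other way, with 325, 296 and 327 CPM at day 0, 538, 455 and 460.1 at day 7 and 387, 396 and 397 at day 28, and was called higher at day 7 than at day 0 (0.61, SE 0.10, adjusted p 3.46e-05). For 6 leukocyte miRNAs the sum was 876 to 1177 CPM at day 0, 2220 to 3281 at day 7 and 1939 to 2090 at day 28. For 6 mesenchymal names it was 1996 to 2401, 5821 to 6065 and 4212 to 5268 CPM. Among these, miR-199a-3p and miR-199b-3p carry the same values and were summed once. The leukocyte and mesenchymal sums of day 28 lay below all of day 7 and above all of day 0. Most of the leukocyte sum was miR-142-5p and most of the mesenchymal sum miR-199a-3p. Neither of these was called between day 7 and day 28. The tubule sum of day 28 lay above all of day 7. Its overlap with day 0 was narrow, with the highest day 28 library at 189240 CPM and the lowest day 0 library at 188570 CPM. The endothelial sum of both miR-126 arms was 13237 to 15456 CPM at day 0, 10543 to 11118 at day 7 and 12844 to 15605 at day 28. The smooth muscle sum of miR-143-3p and miR-145-5p was 62133 to 80414, 64604 to 79030 and 83137 to 85951 CPM. Neither of these was called at day 28 against day 7 or day 0. The erythroid sum overlapped between all 3 days. The liver marker miR-122-5p was at or under 0.579 CPM in these 9 libraries. The tubule markers that define kidney were read on all 3 days, and the part of cell type markers in the results that follow was not tested.

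Of the miRNAs averaging 10 CPM or more, miR-21-3p came down most, and its partner arm miR-21-5p was the most abundant of the large falls. It lies within Vmp1 on chromosome 11 (chr11:86584120-86584141, minus strand, in sequence that is also exon of Vmp1). miR-21-5p stood at 15616, 15742 and 12862 CPM at day 0, 87516, 74802 and 66704 at day 7 and 21226, 20865 and 25999 at day 28. All 3 day 28 libraries lay below all of day 7 and above all of day 0. It fell by 1.75 on the log2 scale (SE 0.15, adjusted p 1.16e-07), a mean 3.36 times higher at day 7 than at day 28, and 73.8% of its distance was returned. As a share of all miRNA reads, miR-21-5p went from 1.40% ± 0.151 at day 0 to 7.76% ± 0.580 at day 7 and 2.04% ± 0.307 at day 28 (SD, n = 3). The 10 miRNAs most abundant at day 7 together held 72.1%, 72.0% and 72.6% of the reads on those days. The scarcer arm miR-21-3p held 829.9, 826 and 758 CPM at day 7 and 177, 196 and 225 at day 28, against 188, 196 and 124 at day 0. Its day 28 libraries overlapped those of day 0. It fell by 2.01 on the log2 scale (SE 0.20, adjusted p 3.43e-07). At day 28 miR-21-5p was still above day 0 by 0.62 (SE 0.15, adjusted p 0.00778), while miR-21-3p was at 0.26 (SE 0.20, adjusted p 0.445). The miR-21-5p call against day 0 was lost without day 28 replicate 3 (adjusted p 0.0591), without day 0 replicate 3 (0.0548) and with no filter (0.0501).

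miR-132 and miR-212 are neighbours on chromosome 11 that share the seed AACAGUC and are known to be induced by CREB and by inflammatory signals. miR-212-3p held 43.6, 46.3 and 45.7 CPM at day 7 and 10.3, 10.46 and 18.3 at day 28, against 8.07, 6.88 and 4.63 at day 0. It fell by 1.77 on the log2 scale (SE 0.24, adjusted p 1.36e-05). miR-132-3p held 350.4, 301 and 289 CPM at day 7 and 95.5, 84.5 and 151 at day 28, after 56.5, 51.3 and 46.0 at day 0. It fell by 1.54 on the log2 scale (SE 0.20, adjusted p 8.3e-06) and was still 1.05 above day 0 (SE 0.20, adjusted p 0.000821). For both, the third day 28 library was the highest of its day, and it lay nearer to the other day 28 libraries than to day 7. These 2 miRNAs returned 66.8% and 59.5% of their distance. The other arm miR-212-5p also fell, by 1.48 (SE 0.22, adjusted p 4.14e-05).

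**Figure D2:**
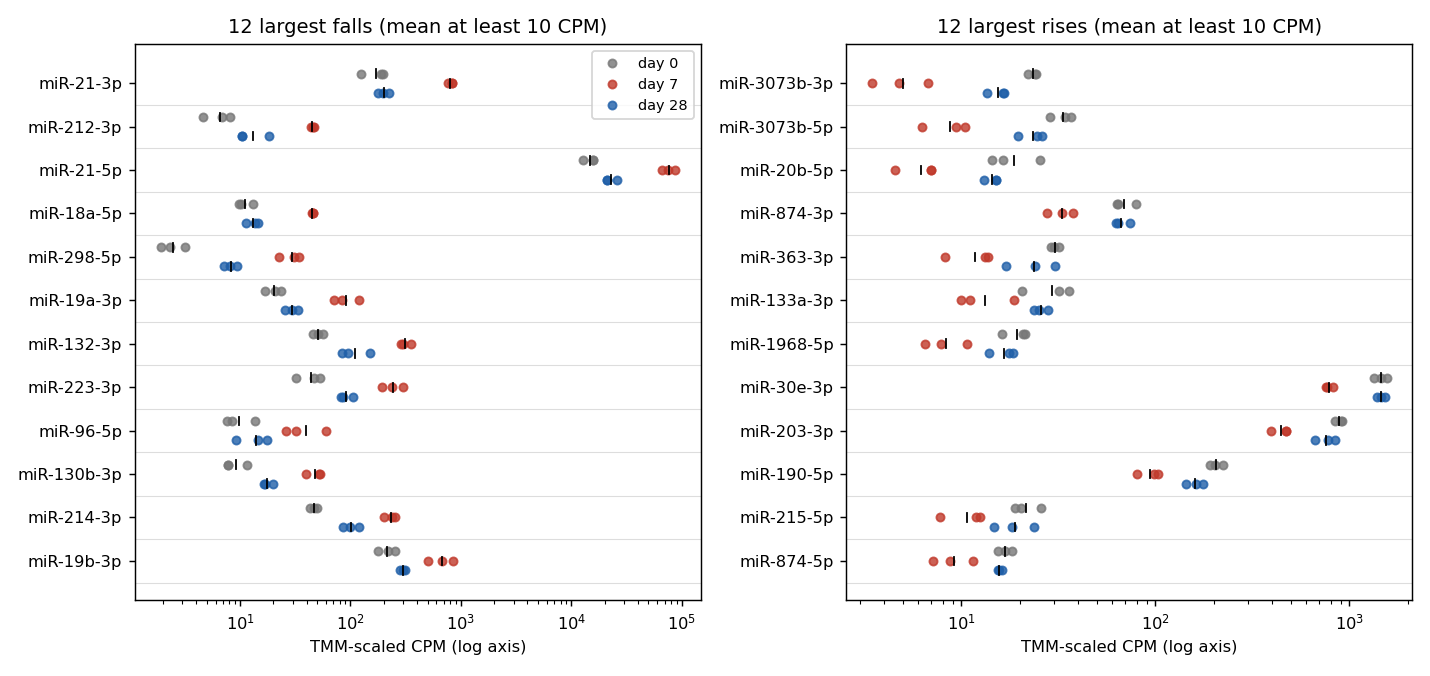
TMM-scaled CPM on a log axis for the 12 largest falls and the 12 largest rises from day 7 to day 28, restricted to calls that average 10 CPM or more and whose day 7 and day 28 libraries do not overlap. Points are single libraries, 3 per day, and black ticks are the means of days 0, 7 and 28. miR-21-3p, miR-18a-5p and miR-96-5p overlap day 0 again at day 28, while miR-132-3p, miR-298-5p and miR-223-3p lie between.

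The miR-17 to miR-92 cluster and its 2 paralogous clusters, known for promoting proliferation, split by locus. All 13 listed members passed the test, against 37.1% of all miRNAs tested, with 10 lower and 3 higher at day 28 and a median of -0.67. The 3 that rose, miR-106a-5p, miR-20b-5p and miR-363-3p, are those that RefSeq places only in the X chromosome cluster. miR-18a-5p held 45.7, 44.6 and 45.5 CPM at day 7 and 11.3, 13.5 and 14.5 at day 28, against 13.0, 10.1 and 9.84 at day 0. It fell by 1.72 on the log2 scale (SE 0.20, adjusted p 4.33e-06), and its day 28 libraries overlapped day 0. miR-19a-3p held 118, 83.0 and 71.1 CPM at day 7 and 29.8, 25.8 and 33.5 at day 28, and fell by 1.56 on the log2 scale (SE 0.21, adjusted p 1.24e-05). miR-19b-3p, which differs from it by 1 base and also has a copy on the X chromosome, held 855, 680.3 and 499 and then 297, 279 and 313 CPM, and fell by 1.16 (SE 0.23, adjusted p 0.000494). None of the 13 differed from day 0 at day 28 by the test.

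Among the 6 miRNAs with the AAAGUGC seed, miR-17-5p held 268, 221 and 179 CPM at day 7 and 126, 125 and 125 at day 28, and fell by 0.81 on the log2 scale (SE 0.13, adjusted p 0.000132). miR-106b-5p held 165, 320.3 and 156 CPM at day 7, the second library being the highest, and 97.4, 95.2 and 99.2 at day 28, and fell by 1.05 (SE 0.19, adjusted p 0.000212). miR-20a-5p and miR-93-5p fell by 0.67 and 0.55 (adjusted p 0.000212 and 0.000132). In the other direction, miR-20b-5p held 4.55, 6.99 and 6.96 CPM at day 7 and 15.2, 15.1 and 13.1 at day 28, with 14.3, 16.4 and 25.5 at day 0. It rose by 1.13 on the log2 scale (SE 0.29, adjusted p 0.00462). miR-106a-5p held 3.25, 5.50 and 3.23 CPM at day 7, 9.86, 10.2 and 6.66 at day 28 and 8.86, 8.99 and 9.26 at day 0, and rose by 1.00 on the log2 scale (SE 0.21, adjusted p 0.00127). In both, the day 28 libraries lay above all day 7 libraries and overlapped day 0. miR-106a-5p differs from miR-17-5p by 1 base and miR-20b-5p from miR-20a-5p by 2. How near-identical reads were assigned is not given in the sources used here, so the levels of these scarce paralogs are uncertain. miR-363-3p, of the AUUGCAC seed, differs from miR-92a-3p by 10 bases. It held 13.7, 13.2 and 8.20 CPM at day 7, 23.8, 30.4 and 16.9 at day 28 and 30.0, 29.1 and 31.8 at day 0, and rose by 0.95 on the log2 scale (SE 0.23, adjusted p 0.00326). Its seed partners miR-92a-3p and miR-25-3p fell by 0.46 and 0.42 (adjusted p 0.00128 and 0.00606). Since miR-92a-3p also has a copy in the X chromosome cluster, its fall cannot be assigned to chromosome 14 alone. The falls and rises of the cluster members kept their call under all alternatives that were run.

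**Figure D3:**
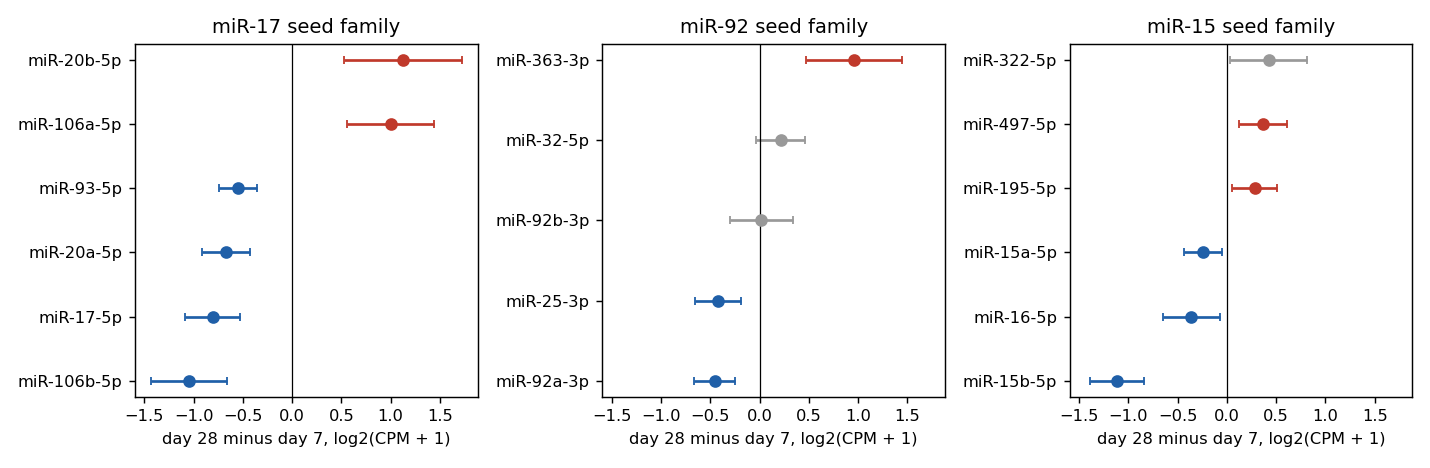
Difference from day 7 to day 28 (log2(CPM + 1), day 28 minus day 7) for the members of 3 seed families, with 95% confidence intervals from limma. Red points were called higher, blue lower and grey not called. In the miR-17 family miR-20b-5p and miR-106a-5p lie near 1 and the other 4 below 0. In the miR-92 family miR-363-3p lies apart from miR-25-3p and miR-92a-3p. In the miR-15 family the intervals of miR-15a-5p, miR-16-5p and miR-195-5p come close to 0.

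Over all seeds, 38 families had at least 2 tested members with a RefSeq sequence, 103 miRNAs in all. In 16 families at least 2 members were called, in 1 direction for 12 and in both for 4. Beside the AAAGUGC and AUUGCAC seeds these were AGCAGCA and AAGCUCG, the second with miR-99a-3p higher and miR-99b-3p lower, a pair named after its values were seen. Of the AGCAGCA seed, miR-15b-5p of an intron of Smc4 held 170.3, 149 and 119.6 CPM at day 7 and 65.7, 62.5 and 70.8 at day 28, near its day 0 levels of 63.0, 56.6 and 63.4. It fell by 1.12 on the log2 scale (SE 0.13, adjusted p 4.33e-06). miR-15a-5p and miR-16-5p fell by 0.24 and 0.36 (adjusted p 0.0459 and 0.047). Of 18 alternatives, 12 ended the first of these calls and 8 the second. For miR-15a-5p these included each of the 6 libraries left out in turn, with adjusted p of 0.0521 (day 7 replicate 3) to 0.129 (day 28 replicate 1). For miR-16-5p they included all but day 7 replicate 3, with 0.056 (day 7 replicate 2) to 0.239 (day 7 replicate 1). miR-497-5p rose by 0.37 (SE 0.12, adjusted p 0.0188), a call lost with library totals (0.317), without day 28 replicate 2 (0.0646) and without day 7 replicate 1 (0.0638) or 3 (0.0892). The members of this family other than miR-195-5p, and miR-322-5p of the miR-322 and miR-503 list, were named after their values were seen.

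Among miRNAs of blood-derived cells, 7 of 11 fell and 1 rose, against 20.6% and 16.5% of all miRNAs tested, with a median of -0.78. miR-223-3p, known from neutrophils and monocytes, held 236, 302 and 193 CPM at day 7 and 84.9, 81.6 and 105 at day 28, against 32.3, 46.5 and 52.7 at day 0. It fell by 1.40 on the log2 scale (SE 0.21, adjusted p 4.14e-05) and stayed above day 0 by 1.05 (SE 0.21, adjusted p 0.00125). miR-142-3p, made in blood-derived cells in general, held 257, 280.3 and 169.5 CPM at day 7, 112, 107 and 135 at day 28 and 54.7, 52.8 and 53.5 at day 0, and fell by 0.96 (SE 0.19, adjusted p 0.000488). All 3 groups of libraries were apart for both miRNAs. miR-511-3p, of macrophages, went from 14.2 ± 5.99 to 4.21 ± 0.995 CPM (SD, n = 3) and fell by 1.50 (SE 0.31, adjusted p 0.000982). The single rise was miR-150-5p, of mature lymphocytes, at 207, 344 and 256 CPM at day 7 and 375, 388 and 358 at day 28 (0.50, SE 0.20, adjusted p 0.0494). 10 of 18 alternatives ended that call, with adjusted p up to 0.239 (library totals). They included the removal of any 1 of the day 28 replicates (0.0963, 0.126 and 0.0773) and of day 7 replicate 1 (0.235) or 3 (0.103). 5 of the 7 falls kept their call under all alternatives. The markers of the leukocyte sum given above are members of this list. The largest part of that sum was miR-142-5p, with means of 1783 CPM at day 7 and 1374 CPM at day 28. The difference of miR-142-5p did not pass the test (-0.35, adjusted p 0.0639).

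The list of miRNAs induced by NF-kB signalling shares miR-155-5p and miR-146a-5p with the leukocyte list. It had 5 falls and 0 rises among 8, against 20.6% and 16.5% of all miRNAs tested, with a median of -0.98. Both arms of miR-132 and miR-212, neighbours on chromosome 11, made up 4 of the falls, so these are not 4 separate loci. Removing day 28 replicate 2 raised the adjusted p of miR-132-5p to 0.0712, and removing day 7 replicate 1 also ended its call (0.0521). miR-146b-5p, which acts in a feedback on that pathway, made up the fifth. It held 904, 616 and 495 CPM at day 7 and 377, 289 and 299 at day 28, against 92.2, 87.2 and 128 at day 0. Its libraries of the 3 days did not overlap. It fell by 1.02 on the log2 scale (SE 0.20, adjusted p 0.000631), returned 38.3% of its distance and was 1.65 above day 0 at day 28 (SE 0.20, adjusted p 8.17e-06). miR-146a-5p has the same seed and differs by 2 bases. It held 327, 409 and 283 CPM at day 7 and 531, 435 and 393 at day 28, a difference of 0.42 that did not pass (SE 0.21, adjusted p 0.13). Against day 0 it was 0.88 higher (SE 0.21, adjusted p 0.00688), a call lost without day 28 replicate 1 (0.0527). The remaining members, miR-155-5p and miR-9-5p, did not pass between day 7 and day 28 either (-0.05 and 0.25, adjusted p 0.802 and 0.202). Leukocyte marker sums moved with the falls of this list, and their part was not tested.

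The mesenchymal list holds miR-199 and miR-214 arms, some of which lie in the transcript Dnm3os. Of these, 3 of 6 fell and 0 rose, against 20.6% and 16.5% of all miRNAs tested, with a median of -0.43. miR-199a-3p and miR-199b-3p hold identical values in all libraries and count as 1 measurement. miR-214-3p held 255, 203 and 238 CPM at day 7 and 99.4, 85.7 and 119.5 at day 28, against 46.9, 43.4 and 50.1 at day 0, and fell by 1.19 on the log2 scale (SE 0.21, adjusted p 0.000212). miR-199a-3p held 5016, 5245 and 5095 CPM at day 7 and 4695, 3747 and 4551 at day 28, against 2184, 1772 and 1769 at day 0. Its day 28 libraries lay a little below those of day 7 and far above those of day 0. The difference from day 7 was -0.25 (SE 0.15, adjusted p 0.194, 95% interval -0.55 to 0.06), and 17.3% was returned. miR-199a-5p and miR-214-5p fell by 0.51 and 0.58 (adjusted p 0.0112 and 0.0105). Neither call held without day 28 replicate 2 (0.0651 and 0.058) and without day 7 replicate 1 (0.0919 and 0.0538). All 6 were above day 0 at day 28, by 1.09 to 1.21, against 11.1% of all miRNAs tested.

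Other falls came from scattered loci. miR-298-5p, of chromosome 2 (chr2:174267553-174267575, minus strand), was scarce at day 0 with 2.34, 1.91 and 3.18 CPM. It held 34.5, 30.9 and 22.4 CPM at day 7 and 9.38, 7.14 and 8.18 at day 28, and fell by 1.70 on the log2 scale (SE 0.26, adjusted p 5.28e-05). It was still 1.42 above day 0 (SE 0.26, adjusted p 0.000702). Of the miR-183 cluster, known from sensory epithelia, miR-96-5p held 60.5, 32.3 and 25.9 CPM at day 7 and 14.7, 9.19 and 17.7 at day 28, and fell by 1.40 on the log2 scale (SE 0.30, adjusted p 0.00128). miR-183-5p held 664, 394 and 354 and then 225, 200.3 and 211 CPM and fell by 1.09 (SE 0.21, adjusted p 0.000409). The first day 7 library was the highest for both. miR-182-5p of the same cluster fell by 0.60 (adjusted p 0.0303), a call lost without day 7 replicate 1 (0.207), without any 1 of the day 28 replicates (0.0665, 0.0754 and 0.0573) and with no filter (0.111).

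miR-130b-3p, of the AGUGCAA seed, held 53.1, 51.6 and 39.3 CPM at day 7 and 16.4, 16.8 and 19.8 at day 28, and fell by 1.38 on the log2 scale (SE 0.18, adjusted p 7.64e-06). let-7i-5p held 9654, 8726 and 8402 CPM at day 7 and 4137, 3753 and 4613 at day 28, against 2976, 2624 and 2479 at day 0. It fell by 1.10 (SE 0.14, adjusted p 7.64e-06), while 6 of the 9 members of the let-7 family, known from development and differentiation, were not called and the list's median was -0.10. miR-375-3p, known from pancreatic islets and other epithelia, held 710.5, 589 and 700.3 CPM at day 7 and 287, 301 and 314 at day 28, and fell by 1.14 (SE 0.14, adjusted p 6.32e-06). The pancreas miRNAs miR-216a-5p and miR-217-5p had 0 reads in the day 0 and day 7 libraries. Of the miR-34 family, which p53 induces, 4 of 5 fell and 0 rose, against 20.6% and 16.5% of all miRNAs tested, with a median of -0.64. One of the 4, miR-34c-3p (-0.64, adjusted p 0.0441), lost its call in 9 of 17 alternatives. These included removal of any 1 day 28 replicate (0.0593, 0.0754 and 0.137), of day 7 replicate 1 (0.0825) or 3 (0.216), and DESeq2 (0.0558). miR-34a-5p went from 155 ± 35.8 to 87.4 ± 8.30 CPM (SD, n = 3; -0.80, SE 0.21, adjusted p 0.00611). None of the 5 differed from day 0 at day 28 by the test.

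The largest rise, 1.49 on the log2 scale (miR-3073b-3p), was smaller than the largest falls, and miRNAs of epithelium were among the rises. All 7 tested miRNAs of the miR-30 list, abundant in kidney epithelium, rose from day 7 to day 28, with a median of 0.56. Of all miRNAs tested, 16.5% rose. With library totals 5 of the 7 rose and the median was 0.37. 4 of the 7 kept their call under all alternatives. miR-30e-3p, of an intron of Nfyc (chr4:120772618-120772639, minus strand), held 766, 756 and 821 CPM at day 7, 1446, 1532 and 1381 at day 28 and 1339.5, 1556 and 1459 at day 0. Its day 28 libraries overlapped day 0 and lay far above day 7. It rose by 0.89 on the log2 scale (SE 0.12, adjusted p 1.39e-05). miR-30e-5p held 16874, 15521 and 15269 CPM at day 7 and 25282, 25517 and 25238 at day 28 and rose by 0.68 (SE 0.16, adjusted p 0.00264). miR-30a-5p held 54979, 51043 and 50589 and then 74659, 82373 and 76756 CPM and rose by 0.58 (SE 0.11, adjusted p 0.0005). Their day 0 levels were 23578, 28146 and 30413 and 72740.0, 89377 and 79082 CPM. In day 28 against day 0 none of the 7 was called, and their differences ran from -0.14 to 0.11. The tubule marker sum holds miR-30a-5p and moved the same way.

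Of the 9 tested kidney-enriched miRNAs, 4 rose and 1 fell, against 16.5% and 20.6% of all miRNAs tested. The median of 0.13 became -0.06 with library totals, under which the counts were also 4 and 1. miR-192-5p, the leading tubule miRNA, held 58374, 67229 and 73464 CPM at day 7, 90859, 106443 and 86959 at day 28 and 124500.0, 129013 and 109143 at day 0. It rose by 0.51 on the log2 scale (SE 0.12, adjusted p 0.00237), and all its day 28 libraries lay between those of day 7 and day 0. Against day 0 it differed by -0.35 (SE 0.12, adjusted p 0.0564). miR-215-5p, which shares its seed, held 7.80, 12.5 and 11.9 CPM at day 7 and 18.3, 23.7 and 14.7 at day 28 and rose by 0.76 (SE 0.20, adjusted p 0.00474). miR-190-5p, of an intron of Tln2, held 98.2, 104 and 80.5 and then 176, 162 and 143 CPM and rose by 0.77 (SE 0.18, adjusted p 0.00271). The fourth, miR-10b-5p, rose by 0.46 (SE 0.15, adjusted p 0.0174). Its call was lost without day 28 replicate 2 (0.0563), without day 7 replicate 2 (0.179) or 3 (0.0662) and with no filter (0.0642). The 1 fall was miR-204-5p, at 538, 455 and 460.1 CPM at day 7 and 387, 396 and 397 at day 28 (-0.30, SE 0.10, adjusted p 0.0237). Removing day 7 replicate 1 ended that call (0.126), as did removing day 28 replicate 1 (0.0648) or 2 (0.0571), testing with no filter (0.0964) and fitting the 2 days alone (0.142).

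The largest rise was that of miR-3073b. miR-3073b-3p held 3.47, 4.76 and 6.71 CPM at day 7, 16.6, 16.3 and 13.5 at day 28 and 24.0, 24.3 and 21.998 at day 0, and rose by 1.49 on the log2 scale (SE 0.34, adjusted p 0.00197). miR-3073b-5p held 6.28, 9.37 and 10.4 CPM at day 7 and 26.0, 24.5 and 19.6 at day 28 and rose by 1.35 (SE 0.24, adjusted p 0.000247). For both arms the day 28 libraries lay above all of day 7 and below all of day 0. The precursor lies on the minus strand of chromosome 12 (miR-3073b-5p at chr12:112109288-112109309), opposite Mir3073a. Whether strand was used in counting is not given in the sources used here, so reads of the 2 precursors cannot be told apart. miR-203-3p, of stratified and other epithelia, is encoded on the same chromosome at chr12:112130927-112130948. It held 393, 468 and 473 CPM at day 7, 771, 839 and 664 at day 28 and 917, 902 and 838 at day 0, and rose by 0.77 on the log2 scale (SE 0.13, adjusted p 0.000121).

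miR-874-3p held 27.7, 33.2 and 37.5 CPM at day 7, 64.0, 73.7 and 62.8 at day 28 and 64.1, 63.7 and 79.6 at day 0. It rose by 1.01 on the log2 scale (SE 0.18, adjusted p 0.000212) and overlapped day 0 again. miR-874-5p rose by 0.74 (SE 0.17, adjusted p 0.002). miR-1968-5p held 6.50, 7.88 and 10.7 CPM at day 7 and 14.0, 18.4 and 17.5 at day 28 and rose by 0.93 (SE 0.21, adjusted p 0.00215). miR-133a-3p, a muscle miRNA, held 11.1, 18.6 and 9.94 CPM at day 7 and 27.9, 25.01 and 23.8 at day 28 and rose by 0.95 (SE 0.31, adjusted p 0.0216). Its call was lost with library totals (0.0619) and without day 28 replicate 1 (0.0638) or 2 (0.0548), or day 7 replicate 1 (0.0785) or 3 (0.0865). The other muscle markers, miR-1a-3p and miR-206-3p, were under the filter.

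Calls in several other families depended on the scaling. Of 5 tested miR-29 arms, known to target collagens, 3 rose, with a median of 0.41, and with library totals 1 rose. That one was miR-29c-3p, at 357, 509 and 462 CPM at day 7 and 641, 744 and 595 at day 28 (0.59, SE 0.14, adjusted p 0.00264). Of the 4 tested miRNAs of the miR-101 list, 3 rose, with a median of 0.38, and 0 rose with library totals. The 3 were both miR-101a arms and miR-101c, whose reads cannot be told apart from those of miR-101a-3p. Both miR-126 arms, of endothelium, rose by 0.41 and 0.30 (adjusted p 0.00608 and 0.0246), and with library totals neither was called (0.0662 and 0.389). Both of these calls were also lost without day 28 replicate 2 (0.0506 and 0.0635) and without day 7 replicate 2 (0.0524 and 0.141). The second was lost as well without day 28 replicate 1 (0.0635) or day 7 replicate 3 (0.0683). In the miR-200 list, of epithelial identity, 1 of 7 rose, no larger a share than the 16.5% of all miRNAs tested, with a median of 0.16. That call was not kept under all alternatives, and with library totals 0 rose, 2 fell and the median was -0.03. Of 5 erythroid miRNAs and 12 tested miRNAs of the imprinted Dlk1-Dio3 cluster, 0 were called, with medians of 0.01 and -0.12. With library totals those medians were -0.17 and -0.29, and 1 of the Dlk1-Dio3 miRNAs was lower. In the smooth muscle list of miR-143 and miR-145 arms 1 of 4 rose (median 0.06), and with library totals 0 rose and 1 fell. In the miR-322 and miR-503 list 1 of 5 rose (median 0.31), and 0 with library totals. Single calls in lists this small stand near the 16.5% over all miRNAs.

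**Figure D4:**
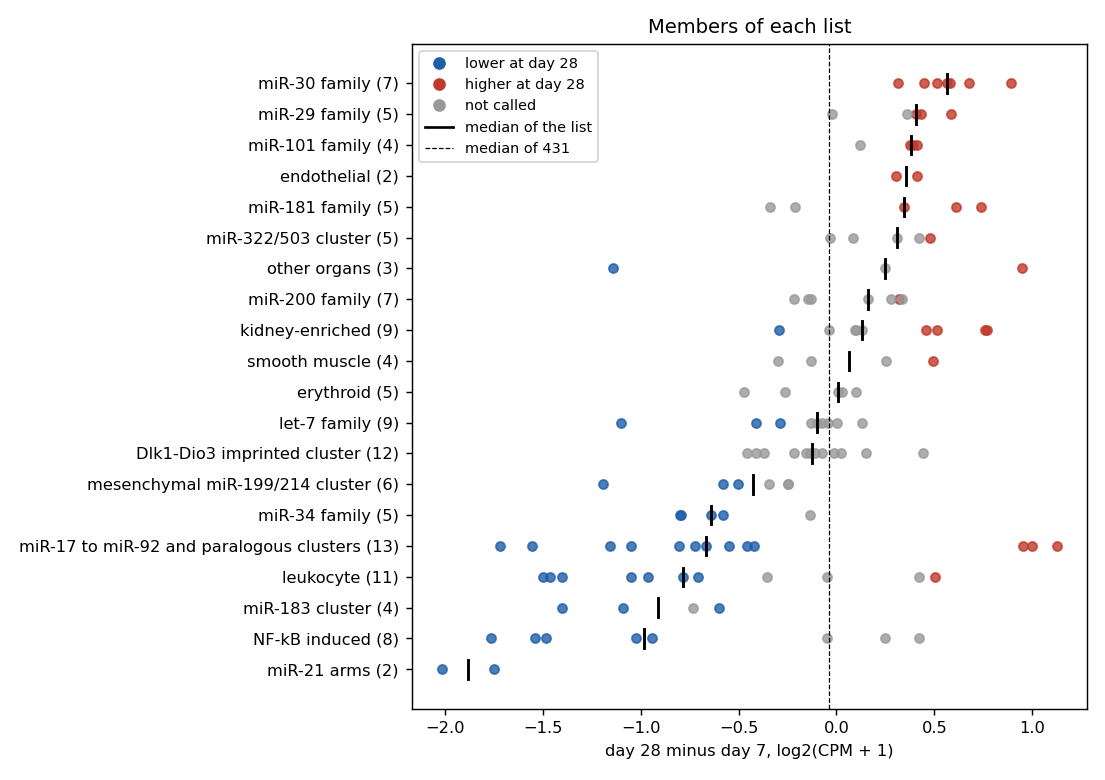
Difference from day 7 to day 28 (log2(CPM + 1)) for the tested members of each list, with the number of members in brackets. Points are miRNAs, red called higher, blue called lower and grey not called; bars are list medians and the dashed line is the median of all 431 (-0.04). The miR-30 list lies above 0 throughout, and the miR-17 to miR-92 list has 10 points below 0 and 3 near 1.

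Some miRNAs that were high at day 7 were still near or above their day 7 level at day 28. These are given as values, since the share returned uses the day 7 libraries on both sides. miR-676-3p, of an intron of Eda on the X chromosome, held 60.7, 59.9 and 59.3 CPM at day 0, 96.9, 107 and 111 at day 7 and 109, 109 and 117 at day 28. Days 7 and 28 overlapped, and both lay above day 0. It was 0.88 above day 0 at day 28 (SE 0.17, adjusted p 0.000821), with a share returned of -10.9%. miR-676-5p held 21.02, 19.5 and 18.6 CPM at day 7 and 23.3, 25.01 and 26.6 at day 28, against 12.2, 13.0 and 13.3 at day 0, with a share returned of -56.4%. miR-148a-3p held 2345, 2581 and 2035 CPM at day 0, 4480.2, 3135 and 2759 at day 7 and 3772, 3612 and 3899 at day 28, with its highest mean at day 14. Its day 28 libraries lay within the range of day 7 and above day 0. miR-195-5p held 319.6, 373 and 403 CPM at day 0, 494, 452 and 386 at day 7 and 572, 519 and 522 at day 28. It was the 1 miRNA of 431 that was called higher at day 7 than at day 0 and higher again at day 28 than at day 7. The step from day 7 to day 28 was 0.28 (SE 0.11, adjusted p 0.0494) and its call was lost in 8 of 18 alternatives. These included library totals (0.53), each day 28 replicate left out (0.157, 0.0757 and 0.0729) and day 7 replicate 2 (0.213) or 3 (0.243) left out. The difference from day 0, 0.56 (SE 0.11, adjusted p 0.00101), kept its call in all of them. Also among the 8 least returned were miR-148a-5p, miR-141-5p, miR-92b-3p and miR-10a-3p, at -27.3%, -8.44%, -4.29% and 11.3%.

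Among miRNAs low at day 7, miR-33-5p, of an intron of the sterol regulator gene Srebf2, returned least. It held 25.5, 23.1 and 20.3 CPM at day 0, 11.1, 14.3 and 11.7 at day 7 and 14.0, 14.5 and 11.6 at day 28. The day 28 libraries overlapped day 7 and lay below day 0, by 0.74 (SE 0.17, adjusted p 0.00462), and 12.9% was returned. miR-101a-5p held 51.6, 55.5 and 59.9 CPM at day 0, 25.1, 26.8 and 27.8 at day 7 and 30.8, 42.9 and 31.8 at day 28, above day 7 and below day 0, with 36.2% returned. miR-378-5p, miR-708-3p, miR-200a-5p, let-7g-5p, miR-194-2-3p and miR-455-3p returned 35.9% to 41.1% and were not called between day 7 and day 28. The last of these, miR-455-3p, stood at 54.4, 34.3 and 41.1 CPM on average at days 0, 7 and 28.

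**Figure D5:**
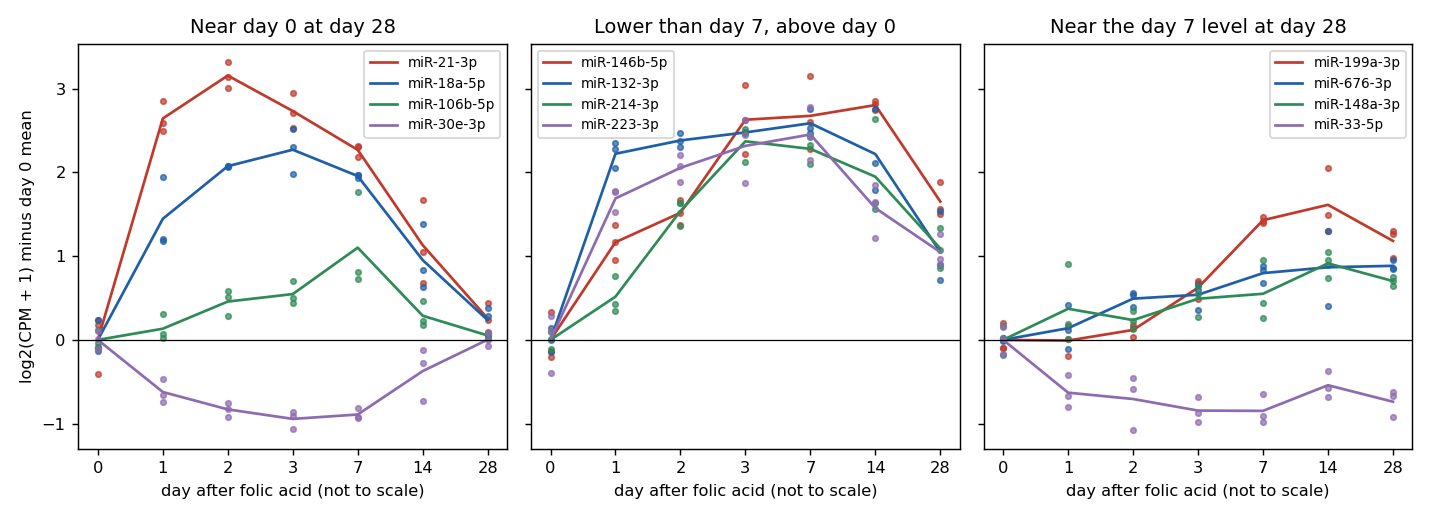
Level relative to the day 0 mean (log2(CPM + 1)) at each of the 7 days, which are evenly spaced and not to scale, for miRNAs that were near day 0, between day 0 and day 7, or near day 7 at day 28. Lines are means and points single libraries, 3 per day. miR-21-3p, miR-18a-5p, miR-106b-5p and miR-30e-3p end near 0, miR-146b-5p, miR-132-3p, miR-214-3p and miR-223-3p end between 1 and 2, and miR-676-3p stays near its day 7 level.

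A few miRNAs had a day 28 mean past that of day 0, and they are given with their overlap. miR-181a-5p was low at day 7 and high at day 28, with 17629, 22974 and 18374 CPM at day 0, 16938, 16689 and 15192 at day 7 and 27771, 26661 and 26811 at day 28. All day 28 libraries lay above all of day 7 and of day 0. Of the 5 tested miR-181 arms, known from lymphocyte development, 3 rose, against 16.5% of all miRNAs tested, with a median of 0.34. With library totals 2 rose and 2 fell. miR-181a-5p rose by 0.74 on the log2 scale (SE 0.10, adjusted p 2.14e-05) and ended 0.47 above day 0 (SE 0.10, adjusted p 0.00295). miR-26a-5p held 29203, 26796 and 29428 CPM at day 7, 43284, 44936 and 39101 at day 28 and 34571, 37937 and 42022 at day 0. It rose by 0.57 on the log2 scale (SE 0.09, adjusted p 5.28e-05). Its day 28 libraries overlapped day 0, and the difference from day 0 did not pass (0.15, SE 0.09, adjusted p 0.276). In the other direction both arms of miR-802 had lower levels at day 28 than at day 0. miR-802-5p held 65.1, 59.9 and 94.7 CPM at day 0, 114, 89.7 and 105 at day 7 and 52.7, 47.5 and 58.8 at day 28, and fell by 0.94 on the log2 scale (SE 0.16, adjusted p 0.000155). miR-802-3p held 28.8, 29.3 and 31.3 CPM at day 7 and 14.0, 13.0 and 15.0 at day 28, against 22.7, 16.1 and 18.2 at day 0, and fell by 1.04 (SE 0.16, adjusted p 6.99e-05). For both, all day 28 libraries lay below all of day 0, and the differences of -0.44 and -0.40 did not pass the test (adjusted p 0.0817 and 0.121).

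Day 28 against day 0 called 56 of 431 miRNAs (13%), 48 higher (11.1%) and 8 lower (1.86%). At an unadjusted p under 0.05 it gave 106 (24.6%). The libraries of these 2 days did not overlap for 145 (33.6%), day 28 being above for 93 (21.6%) and below for 52 (12.1%). Without day 28 replicate 1 the test called 37, 3 of them lower. This comparison shares its day 28 libraries with day 28 against day 7, and the values of both are given side by side. miR-31-5p, named after its value was seen, held 43.5, 61.4 and 41.7 CPM at day 0, 178, 205 and 172 at day 7 and 126, 125 and 144 at day 28. Its 3 days did not overlap. It was 1.43 above day 0 (SE 0.19, adjusted p 2.02e-05) and -0.49 from day 7 (SE 0.19, adjusted p 0.0515). The difference from day 7 passed in 6 of 18 alternatives, among them edgeR's quasi-likelihood test (0.0447) and DESeq2 (0.0382). miR-142-5p held 509, 637 and 656 CPM at day 0, 1635, 2224 and 1489.5 at day 7 and 1415, 1303 and 1405 at day 28. It was 1.20 above day 0 (SE 0.15, adjusted p 8.17e-06) and -0.35 from day 7 (SE 0.15, adjusted p 0.0639). The second difference passed in 4 of 18 alternatives, among them library totals (0.00621) and edgeR's quasi-likelihood test (0.0484). miR-181d-5p stood at 107, 128 and 109 CPM at day 0 and 243, 228 and 237 at day 28, 1.04 higher (SE 0.15, adjusted p 4.51e-05), and overlapped day 7 (377, 230.3 and 235 CPM).

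On the lower side, 3 of the 8 were of the miR-101 list, known to target the methyltransferase Ezh2. The remaining tested member, miR-101b-3p, was not called (-0.11). miR-101a-3p held 13112, 14011 and 12272 CPM at day 0, 7357, 8577 and 8186 at day 7 and 10022, 11493 and 10585 at day 28, and was -0.30 from day 0 (SE 0.09, adjusted p 0.0343). 6 of 18 alternatives ended that call, among them those without day 28 replicate 1 (0.177) or 3 (0.093) and without day 0 replicate 1 (0.0854) or 2 (0.126). miR-101a-5p and miR-101c were -0.66 and -0.55 from day 0 (adjusted p 0.00168 and 0.00185). The sequence of miR-101c differs from that of miR-101a-3p only by 2 bases in length, so their reads cannot be told apart here. miR-101a-5p is the other arm of the miR-101a precursor, so the 3 calls do not stand for 3 separate loci. miR-193-3p, named after its value was seen, held 335, 354 and 397 CPM at day 0, 113, 179.7 and 169.8 at day 7 and 197, 229.9 and 228 at day 28. Its libraries of the 3 days did not overlap, and it was -0.73 from day 0 (SE 0.19, adjusted p 0.0118). Leaving out day 28 replicate 1 (0.0617) or day 0 replicate 3 (0.0548) ended that call.

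The 2 arms named for a precursor were read in the same libraries, and the plain ratio of their CPM within a library does not depend on scaling. Some arms are encoded at 2 loci. Overlap and the exact test below were taken on differences of log2(CPM + 1). These do depend on scaling and on the added 1 where an arm is scarce. Of 150 precursors with both arms tested, 86 had both at a mean of 10 CPM or more over the 6 libraries. In 24 of these both arms were called in the same direction, in 0 in opposite directions, in 29 one arm was called and in 33 none. Over all miRNAs tested, 37.1% were called. The ratio of the arms did not overlap between day 7 and day 28 in 28 of the 86. The levels of single miRNAs did not overlap for 51.7% of those tested, and the count of ratios is a description only. For a single ratio the smallest p of the exact permutation test, two-sided with 3 against 3, is 0.1. miR-181c had the widest shift among the pairs named. Its 5p arm was 8.55, 9.21 and 9.93 times its 3p arm in the day 7 libraries and 16.9, 20.1 and 16.6 times at day 28, against 18.9, 19.7 and 19.0 at day 0. The ratio thus overlapped day 0 at day 28 while the levels did not. miR-181c-5p held 975, 1241 and 1039 CPM at day 0, 1305, 1276 and 1147 at day 7 and 1910.4, 1849 and 1928 at day 28, and rose by 0.61 on the log2 scale (SE 0.11, adjusted p 0.000212). miR-181c-3p held 51.6, 62.9 and 54.7, 153, 139 and 116 and 113, 91.9 and 116 CPM on those days, a difference of -0.34 from day 7 (SE 0.17, adjusted p 0.13). Both arms were above day 0 at day 28, by 0.81 and 0.91 (adjusted p 1.86e-05 and 0.000844). For miR-142 the 5p to 3p ratio was 6.36, 7.94 and 8.79 at day 7 and 12.6, 12.1 and 10.4 at day 28, with 9.31, 12.1 and 12.3 at day 0. For let-7i it went the other way, from 320.6, 318.8 and 402.4 at day 7 to 200, 226.3 and 244.8 at day 28.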

How the data were processed

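Small RNA was sequenced from whole kidney (Trizol RNA, TruSeq small RNA libraries, HiSeq, per the labels' protocols). The authors deposited 1 table of CPM values, scaled to the miRNA reads of each library. CASAVA 1.8 and the mm9 genome are named in the submitters' processing notes, and the miRNA counting tool is not given in the sources used here. The CPM steps gave whole reads for 100% of values, each within 0.05 of a whole number, so the deposited table was also turned back into counts for the filter and the count tests.

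Counts were filtered with edgeR 4.0.16 (filterByExpr, minimum count 10) and scaled by TMM. limma 3.58.1 in R 4.3.3 was fitted with a trend to log2(CPM + 1) over all 21 libraries, 1 mean per day, with 14 residual degrees of freedom. Calls had an adjusted p under 0.05 (Benjamini-Hochberg). The script was tested on simulated data. Alternatives were other scalings, pseudocounts of 0.5 and 5, other filters, robust empirical Bayes, a replicate block, the 2 days alone, each library left out, edgeR's quasi-likelihood test and DESeq2 1.42.0.

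miRNAs were named if they were among the 12 largest falls or rises (called, a mean of at least 10 CPM, no overlap), the 8 least or 5 most returned in each direction, the 10 most abundant at day 7, or members of the lists. The comparison and the lists were chosen with earlier results of these data known.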

Additional observations from a re-analysis of the deposited data

How the results depend on the processing

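No named miRNA that was called changed direction in the 16 to 18 alternatives run for it. With library totals the medians of the kidney-enriched (-0.06), miR-200 (-0.03), smooth muscle (-0.13) and erythroid (-0.17) lists changed sign. From day 7 to day 28 the main test called 160 miRNAs, edgeR's quasi-likelihood test 170 and DESeq2 157. With library totals 30 rose in place of 71, 21 of the miRNAs lower at day 3 rose in place of 54, and the median shares returned were 70.53% and 46.79%. Leaving out 1 library, 44 to 60 rose and 108 to 145 were called. For day 28 against day 0, leaving out 1 library gave 37 to 57 calls, 3 to 10 of them lower. The 8 lower calls of that comparison became 29 with upper-quartile factors, 5 with no filter, 5 with the stricter filter, 16 with only the 2 days and 15 with DESeq2. The causes were not tested.

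The replicate numbers did not pair the libraries: same-numbered libraries of days 7 and 28 deviated together with r of 0.0966, -0.024 and -0.19. With a replicate block, 154 miRNAs were called between day 7 and day 28 (68 higher, 86 lower) and 54 between day 28 and day 0.

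Of 94 named miRNAs called from day 7 to day 28, 59 kept their call under all alternatives run and 35 lost it in at least 1. Of the 69 named and not called, 18 gained a call in at least 1. Of 46 named and called at day 28 against day 0, 30 kept it.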
